A study of Drosophila melanogaster with 9 samples.

Results

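Head libraries of Drosophila melanogaster were compared by whether they held RNA of body tissue. Each library was assigned by the abundance of Cyp4g1 in CPM, counts scaled to a common library total of 1000000. The classes were chosen by these Cyp4g1 values. A library above 100 CPM counted as with body tissue and a library below 10 CPM as without it. The rule placed 5 of the 9 libraries of the series in the first class and 4 in the second, and it left out none. The libraries with body tissue were replicates 1 and 3 of Iso7, replicates 1 and 2 of Iso1 and replicate 2 of Grp. The libraries without it were replicate 2 of Iso7, replicate 3 of Iso1 and replicates 1 and 3 of Grp. Values given library by library follow this order within each class.

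Iso7 flies spent 7 days alone, Iso1 flies 1 day alone and Grp flies 7 days in company, and each condition had 3 samples. All were wild type, of the Canton-S w1118 (iso1CJ) strain, and no group carried a further allele or received an agent. Each sample was a pool of 200 heads collected at ZT0.5-2, that is, counted in hours from lights on. The labels give neither sex nor age. Reads were counted per gene from stranded mRNA libraries, and library totals ranged from 39698143 to 53514747 counts. Nothing in the labels says that replicates came from separate cohorts, so the p-values of the housing comparisons below measure only the spread between these samples.

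Oenocytes are cells under the abdominal cuticle that make the hydrocarbons of the fly's waterproof coat, and Cyp4g1 is the cytochrome P450 that catalyses the last step of that synthesis. The midgut secretes digestive proteases and glycosidases, and the Malpighian tubules are the fly's renal organs. The male tract consists of the testes, where sperm are made, the accessory glands, which secrete most seminal fluid proteins, and the ejaculatory duct and bulb. These organs lie in the body and not in the head capsule. Hox genes mark position along the body, and Abd-B and abd-A are those of the abdominal segments.

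Cyp4g1 (FBgn0010019, chromosome X, 467057 to 469335, minus strand) had 561, 1657, 615, 714 and 793 CPM in the libraries with body tissue, against 0.836, 1.06, 1.57 and 1.46 CPM in the libraries without it. These values chose the classes and are given without a test. The lowest library inside the upper threshold stood at 561 CPM and the highest inside the lower threshold at 1.57 CPM, so no library lay near either one. The mean was 868 ± 450 CPM (SD, n = 5) with body tissue and 1.23 ± 0.343 CPM (SD, n = 4) without it. Iso7 replicate 3 was the highest library with body tissue. All other genes were measured in these same libraries, so the differences between the classes are described and not tested.

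Ebp, an ejaculatory bulb protein of the mating plug, had 182, 337, 307, 265 and 127 CPM in the libraries with body tissue, against 0, 0.0242, 0.0187 and 0 CPM in those without it. Uro, the urate oxidase of the tubules, had 6.16, 12.6, 5.26, 6.59 and 1.76 CPM in the libraries with body tissue, against 0.0209, 0.0483, 0 and 0.0197 CPM in those without it. ZnT35C, a zinc transporter of the tubules, had 2.90, 7.11, 3.95, 3.53 and 2.78 CPM in the libraries with body tissue, against 0.209, 0.314, 0.318 and 0.138 CPM in those without it. In each of these 3 markers, which belong to organs other than the oenocytes, the classes did not overlap, and Iso7 replicate 3 was again highest. Of 12963 genes with enough counts to fit, 2785 likewise had no overlap and were higher with body tissue.

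**Figure D1:**
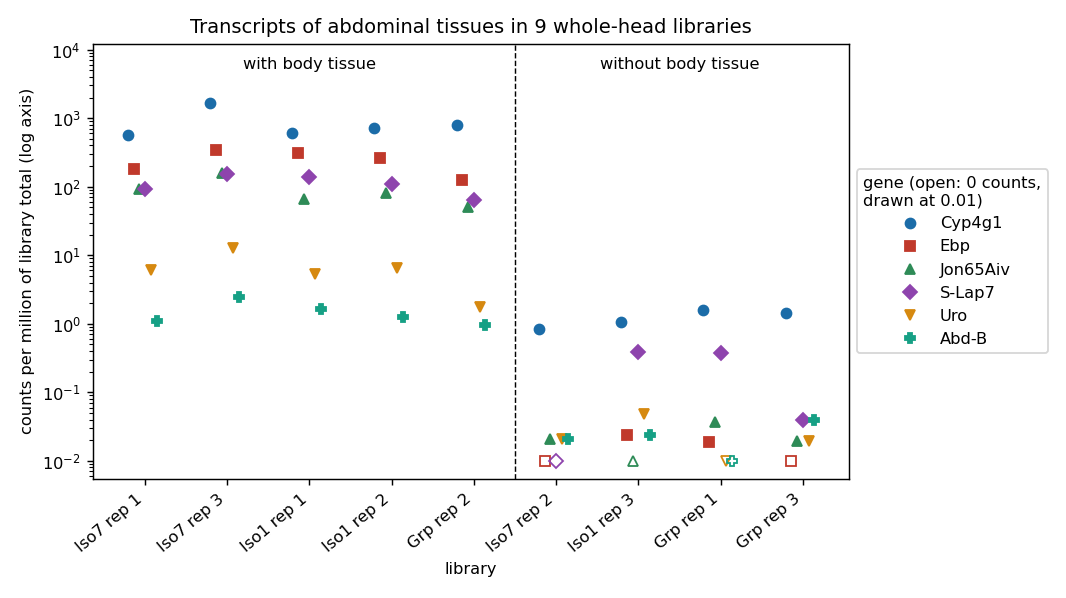
Abundance of Cyp4g1 (oenocyte), Ebp (ejaculatory bulb), Jon65Aiv (midgut), S-Lap7 (testis), Uro (tubule) and Abd-B (abdominal segments) in each library, in CPM on a log axis, with the libraries with body tissue left of the dashed line. The lowest Cyp4g1 value with body tissue is 561 CPM and the highest without it is 1.57 CPM, and no gene shown overlaps between the classes.

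Across the transcriptome the classes differed almost entirely in one direction. A gene was counted as higher when its lowest CPM with body tissue lay above its highest CPM without it and the log2 difference fitted by edgeR, with the housing group as a covariate, was 1 or more. A gene was counted as lower by the reverse rule. Of 12963 genes with enough counts to fit, 2548 were higher, which is 19.7%, and 1 was lower, which is 0.00771%. The median log2 difference was 5.82 over the higher genes and 0.00 over all genes fitted. With the 356 higher genes that had no count in any library without body tissue set to a lower bound, the median over the higher genes was 5.44. These 356 genes had enough counts to fit only through libraries with body tissue. Of the higher genes, 2241 stayed under 0.5 CPM in every library without body tissue and the other 307 did not. The remaining 10414 genes met neither rule, and 9986 of these were within 0.5 log2 units of no difference.

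The higher genes together took a small part of each library. They held 1.35%, 2.29%, 1.62%, 1.49% and 1.04% of the counts in the libraries with body tissue, against 0.0602%, 0.0673%, 0.0622% and 0.0597% in the libraries without it. Genes with at least 1 count numbered 15101 to 15256 with body tissue and 13266 to 13710 without it. Among the 2099 higher genes with a fitted log2 difference of 3 or more, 2018 to 2098 reached 10 counts in each library with body tissue, against 157 to 225 in each library without it. The median of the mean CPM with body tissue was 2.12 over the higher genes. In bulk samples of this kind fewer cells of a type and less RNA per cell cannot be told apart.

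All 12 fitted genes of the Y chromosome were higher, and 2 of 101 fitted genes of chromosome 4 were. Most of these Y-linked genes had enough counts to fit only through libraries with body tissue, which largely fixed their share. The share was 24.8% on 2L, 18.9% on 2R, 19.0% on 3L, 19.7% on 3R and 15.6% on X. Noncoding RNAs were higher in 250 of 892 cases, which is 28.0%, and protein-coding genes in 2270 of 11817, which is 19.2%. Higher genes had a median summed exon length of 1134 bases, against 1782 bases over all genes fitted.

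Genes of hydrocarbon synthesis were split between those higher with body tissue and those at like levels in every head library. Of 23 listed genes, 19 had enough counts to fit and 14 were higher, against 19.7% of all genes fitted. These numbers include Cyp4g1, which chose the classes, and 13 genes were higher apart from it. The median log2 difference of the fitted members, Cyp4g1 included, was 4.37. Of the 14, 9 stayed under 0.5 CPM in every library without body tissue, with 159 counts in all there. Most of these 9 had enough counts to fit only through libraries with body tissue, which fixed part of the share. FASN2, a fatty acid synthase, had 40.6, 111, 42.3, 41.8 and 43.2 CPM in the libraries with body tissue, against 2.82, 1.64, 2.94 and 2.94 CPM in those without it. CG30008, an elongase of very long chain fatty acids, had 40.2, 121, 55.8, 50.3 and 42.0 CPM in the libraries with body tissue, against 0.460, 0.387, 0.487 and 0.355 CPM in those without it. Both followed Cyp4g1 in being highest in Iso7 replicate 3. FarO, a fatty acyl-CoA reductase, was at 4.81 to 9.56 CPM with body tissue and at 2.82 to 3.31 CPM without it, a fitted log2 difference of 1.03 ± 0.19 (SE). FarO was thus measurable in every head library. FASN2, CG30008 and FarO were chosen after their values were seen.

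The other 5 fitted members of this list were not higher. Desat1, a delta-9 fatty acid desaturase, had 3210, 3931, 3198, 3432 and 3303 CPM in the libraries with body tissue, against 4276, 2952, 3216 and 3562 CPM in those without it. Cpr, the electron donor of cytochrome P450 enzymes, was at 346 to 469 CPM with body tissue and 311 to 354 CPM without it. The ketoacyl-CoA reductase spidey was at 143 to 158 CPM with body tissue and 144 to 158 CPM without it. CG33110 and bond, a further pair of elongases chosen after their values were seen, had log2 differences of -0.17 ± 0.07 and 0.00 ± 0.05 (SE). Desat1, Cpr and spidey therefore overlapped between the classes while Cyp4g1 did not. The female-biased desaturase Fad2 and elongase eloF, also chosen after their values were seen, were too low to fit, at 0 to 0.0374 CPM and 0.0252 to 0.148 CPM with body tissue and at 0 to 0.0197 CPM and 0 to 0.0483 CPM without it.

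Digestive genes of the midgut were higher in 40 of 53 listed members, of which 44 had enough counts to fit. Over all genes fitted the share was 19.7%. The median log2 difference of the fitted members was 7.96, or 6.72 with the 14 members without a count in the libraries without body tissue at their lower bound. Of the 40 higher members, 36 stayed under 0.5 CPM in every library without body tissue, with 204 counts in all there. Most of these 36 had enough counts to fit only through libraries with body tissue, which largely fixed the share of higher genes. Jon65Aiv, a chymotrypsin-like protease, had 93.2, 158, 65.6, 79.9 and 51.4 CPM in the libraries with body tissue, against 0.0209, 0, 0.0374 and 0.0197 CPM in those without it. The trypsin betaTry had 64.4, 115, 55.0, 79.5 and 22.3 CPM with body tissue and no count in any library without it. A floor of 3 counts over the 4 libraries without body tissue corresponds to 0.0155 CPM, so the betaTry mean of 67.1 CPM was at least 4329-fold higher. The fold bounds below likewise set the mean with body tissue against this floor, and single libraries can lie lower. The trypsin alphaTry was at 51.4 to 113 CPM with body tissue and had 2 counts in all without it. The neighbouring trypsins gammaTry and deltaTry were too low to fit, with no count in any library and with 0.0197 to 0.149 CPM with body tissue. The trypsin and lysozyme genes include near-identical copies, so reads may have been divided among them.

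Members of other digestive roles, chosen after their values were seen, were also higher. Npc1b, a transporter for sterol absorption, was at 0.554 to 1.96 CPM with body tissue and 0.112 to 0.272 CPM without it. GATAe, the transcription factor of midgut identity, was at 0.531 to 2.24 CPM with body tissue and had 1 count in all without it. Smaller differences came from glycosidases that the head also holds. Mal-A1, a maltase, was at 26.8 to 81.2 CPM with body tissue and 9.63 to 11.8 CPM without it, a log2 difference of 2.4 ± 0.28 (SE). Amy-p, an alpha-amylase, was at 23.2 to 73.4 CPM with body tissue and 5.85 to 19.3 CPM without it. Its near-identical partner Amy-d had 135, 157, 56.8, 65.4 and 105 CPM in the libraries with body tissue, against 106, 46.2, 87.5 and 98.0 CPM in those without it. The classes overlapped in Amy-d, and reads of this pair cannot be assigned with certainty.

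Tubule genes were higher in 6 of 16 listed members, all of which had enough counts to fit, against 19.7% of all genes fitted. The median log2 difference over the 16 was 0.18. Of the 6, 5 stayed under 0.5 CPM in every library without body tissue, with 71 counts in all there. Most of these 5 had enough counts to fit only through libraries with body tissue, which fixed part of the share. The vitamin transporter Smvt had 10.7, 24.5, 9.80, 17.0 and 7.83 CPM in the libraries with body tissue and no count in those without it, so it was at least 900-fold higher. The phosphate transporter NaPi-T was at 6.52 to 15.7 CPM with body tissue and 1.11 to 1.33 CPM without it. The organic anion transporters Oatp58Da and Oatp58Db were at 0.957 to 3.71 CPM and 2.30 to 5.74 CPM with body tissue, against 0 CPM and 0.0209 to 0.217 CPM without it. With Uro and ZnT35C these are the 6 higher members, and Smvt, NaPi-T and the Oatp58D pair were chosen after their values were seen.

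The other 10 listed tubule genes were found in every head library. The chloride channel ClC-a was at 206 to 231 CPM with body tissue and 218 to 248 CPM without it. The glycerol channel Eglp4 had 307 to 391 CPM with body tissue and 330 to 406 CPM without it, the phosphatase Alp4 had 66.2 to 79.4 CPM and 62.7 to 72.1 CPM, and Oatp58Dc had 68.0 to 73.4 CPM and 69.3 to 77.0 CPM. These 4 genes overlapped between the classes. Drip, the aquaporin of stellate cells, was likewise at 51.6 to 63.0 CPM with body tissue and 51.0 to 57.9 CPM without it. Eglp2 did not overlap but missed the threshold with a log2 difference of 0.98 ± 0.19 (SE). Drip and Eglp2 were chosen after their values were seen.

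Beside 19.7% of all genes fitted, 39 of 40 listed seminal fluid genes were higher and the remaining member, Sfp79B, was too low to fit. Their median log2 difference was 9.54, or 8.31 with the 18 members without a count in the libraries without body tissue at their lower bound. Of the 39, 38 stayed under 0.5 CPM in every library without body tissue, with 246 counts in all there. Most of them had enough counts to fit only through libraries with body tissue, which largely fixed the share of higher genes. SP, the sex peptide that changes female behaviour after mating, had 3.58, 9.39, 8.49, 7.22 and 5.40 CPM in the libraries with body tissue and no count in those without it. It was at least 440-fold higher. Dup99B, a related peptide of the ejaculatory duct, had 7.45, 16.2, 7.76, 8.84 and 6.78 CPM with body tissue and no count without it, which makes it at least 606-fold higher. Acp36DE, a protein needed for sperm storage, had 39.4, 108, 109, 91.0 and 50.2 CPM in the libraries with body tissue, against 0.0627, 0.0242, 0.0374 and 0.0197 CPM in those without it. Iso1 replicate 1 stood level with Iso7 replicate 3 in Acp36DE, which was not so in Cyp4g1. The seminal fluid gene Sfp87B had 52.9, 103, 106, 89.9 and 34.4 CPM with body tissue and no count without it, at least 4990-fold higher. Mst57Db and Mst57Da, male-specific transcripts of the accessory gland, were at least 3244-fold and 2628-fold higher, with 27.8 to 70.7 CPM and 23.4 to 58.1 CPM with body tissue and no count without it. The member with 0.5 CPM or more in a library without body tissue was lectin-46Cb, a lectin of the sex peptide network chosen after its values were seen. It was at 6.11 to 12.0 CPM with body tissue and 1.88 to 3.55 CPM without it, a log2 difference of 1.64 ± 0.24 (SE).

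Of 7 listed genes of the ejaculatory duct and bulb, all with enough counts to fit, 3 were higher, namely Ebp, EbpII and Anp. Among all genes fitted the share was 19.7%. These 3 higher genes had 7 counts in all without body tissue, so they had enough counts to fit only through libraries with it. EbpII, a second bulb protein, had 59.2, 110, 110, 86.9 and 41.9 CPM with body tissue and 3 counts in all without it. Anp, the male-specific antibacterial peptide of the duct, was at 9.47 to 19.4 CPM with body tissue and had 2 counts in all without it. EbpII and Anp were chosen after their values were seen. The relative named EbpIII was abundant in every library, with 2536, 2387, 2630, 2561 and 2645 CPM in the libraries with body tissue, against 2584, 3693, 2618 and 2613 CPM in those without it. The esterase Est-6 was at 771 to 1029 CPM with body tissue and 808 to 977 CPM without it, and the odorant-binding protein Obp56g was at 151 to 159 CPM and 127 to 180 CPM. EbpIII, Est-6 and Obp56g thus overlapped between the classes, although all 3 are also known as products of the duct or bulb.

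Testis genes were higher in 35 of 40 listed members, of which 38 had enough counts to fit, with a median log2 difference of 7.20. All genes fitted had a share of 19.7%. Of the 35 higher testis genes, 25 stayed under 0.5 CPM in every library without body tissue, with 384 counts in all there. Most of these 25 had enough counts to fit only through libraries with body tissue, which fixed much of the share. S-Lap1, a sperm aminopeptidase, had 116, 188, 161, 133 and 82.2 CPM in the libraries with body tissue, against 2.78, 3.91, 2.60 and 3.02 CPM in those without it. S-Lap7 of the same family had 92.6, 151, 137, 111 and 63.4 CPM in the libraries with body tissue, against 0, 0.387, 0.374 and 0.0394 CPM in those without it. The order of the 5 libraries with body tissue was the same in both, from Iso7 replicate 3 down to Grp replicate 2. The sperm protein gene loopin-1 had 111, 176, 156, 126 and 79.8 CPM in the libraries with body tissue, against 0.0209, 0.894, 0.561 and 0.217 CPM in those without it. The sperm tail gene dj was at 14.7 to 36.4 CPM with body tissue and 0.0197 to 0.0967 CPM without it. The protamine genes ProtA and ProtB, which package sperm DNA, were at 2.95 to 7.49 CPM and 6.30 to 14.8 CPM with body tissue and had 2 and 9 counts in all without it. The gene twe, the meiotic Cdc25 phosphatase, was at 4.41 to 6.73 CPM with body tissue and 1.53 to 1.71 CPM without it. The gene dj, both protamine genes and twe were chosen after their values were seen. The meiotic regulator bol was common to all heads at 142, 177, 201, 195 and 157 CPM with body tissue and 137, 103, 141 and 136 CPM without it, a log2 difference of 0.43 ± 0.16 (SE).

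Low testis signal also differed among the libraries without body tissue. The 25 higher testis genes that stayed under 0.5 CPM in all of them summed to 0.899, 3.50, 2.26 and 1.48 CPM there, so Iso1 replicate 3 held more than Iso7 replicate 2. The corresponding sums with body tissue were 323, 527, 466, 377 and 228 CPM. The like sums for midgut genes were 552, 976, 463, 605 and 442 CPM with body tissue and 0.961, 1.16, 1.09 and 1.02 CPM without it.

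Of 12 listed Y-linked genes 11 had enough counts to fit and all of those were higher, beside 19.7% of all genes fitted. The 12 had 15 counts in all without body tissue. Those fitted thus had enough counts only through libraries with body tissue, which largely fixed this result. CCY had 0.788, 1.71, 1.64, 1.04 and 0.561 CPM with body tissue and no count without it, at least 73.9-fold higher. The sperm dynein heavy chain kl-5 had 1.14, 1.37, 1.18, 1.16 and 0.561 CPM with body tissue and 1 count in all without it. The dynein gene kl-3 was at 0.448 to 1.06 CPM with body tissue and had 2 counts in all without it. ARY, an aldehyde reductase, was at 0.673 to 1.89 CPM with body tissue and 0 to 0.0483 CPM without it. The noncoding RNA roX1 of the male dosage compensation complex, chosen after its values were seen, was at 1564 to 1770 CPM with body tissue and 1459 to 1839 CPM without it. Y-linked transcripts therefore differed between the classes while roX1 overlapped.

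**Figure D2:**
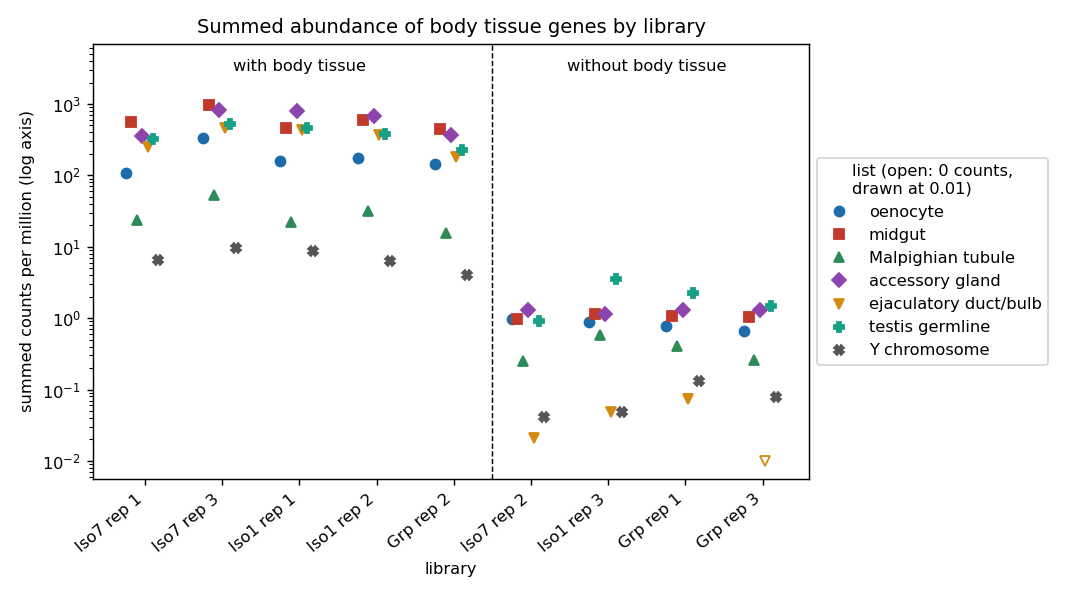
Summed CPM, on a log axis, of the genes of each of 7 lists that were higher with body tissue and stayed under 0.5 CPM without it, for each library, with the libraries with body tissue left of the dashed line. The choice of these genes fixes the gap between the classes, and the spread to see is that among libraries of a class, as in the midgut sums of 442 to 976 CPM with body tissue.

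Most Hox genes listed for trunk segments differed between the classes, and those of head segments did not. Of the 4 listed for trunk segments, 3 were higher, beside 19.7% of all genes fitted. Abd-B and abd-A had 4 and 2 counts in all without body tissue. They had enough counts to fit only through libraries with body tissue, which largely fixed their part of this count. Abd-B (FBgn0000015, chromosome 3R, 16927212 to 16972236, minus strand) had 1.10, 2.43, 1.64, 1.26 and 0.972 CPM in the libraries with body tissue, against 0.0209, 0.0242, 0 and 0.0394 CPM in those without it, a log2 difference of 5.77 ± 0.55 (SE). The gene abd-A had 0.473, 1.18, 0.932, 0.676 and 0.523 CPM with body tissue and 2 counts in all without it. Ubx, which acts further forward in the posterior thorax and the abdomen, had 0.532, 1.60, 0.806, 0.966 and 1.10 CPM in the libraries with body tissue, against 0.397, 0.411, 0.468 and 0.355 CPM in those without it. Its log2 difference was 1.32 ± 0.36 (SE). Antp, the Hox gene of the thorax, was not higher, with 2.83 to 3.66 CPM with body tissue and 2.57 to 3.72 CPM without it. None of the 4 Hox genes of head segments was higher. Their log2 differences were 0.09 ± 0.13 for lab, 0.00 ± 0.09 for pb, -0.01 ± 0.05 for Dfd and 0.06 ± 0.09 for Scr (SE). Dfd, for example, was at 33.6 to 39.4 CPM with body tissue and 33.2 to 40.2 CPM without it.

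Lists of head tissue held almost no gene that met either rule. No gene was higher or lower among 29 photoreceptor, 28 brain neuron, 12 glia and 4 corneal lens genes, all of which had enough counts to fit. The median log2 differences were -0.11, 0.03, -0.05 and -0.12, beside 0.00 over all genes fitted. The rhodopsin ninaE was at 30036 to 37670 CPM with body tissue and 35079 to 37841 CPM without it. The arrestin Arr2 was at 12333 to 16051 CPM with body tissue and 15166 to 16197 CPM without it. The synaptic vesicle protein nSyb was at 1171 to 1321 CPM with body tissue and 1294 to 1401 CPM without it, and the glial glutamine synthetase Gs2 was at 1521 to 1793 CPM and 1649 to 1851 CPM. The libraries of both classes therefore carried the defining transcripts of the labelled tissue, whole head.

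**Figure D3:**
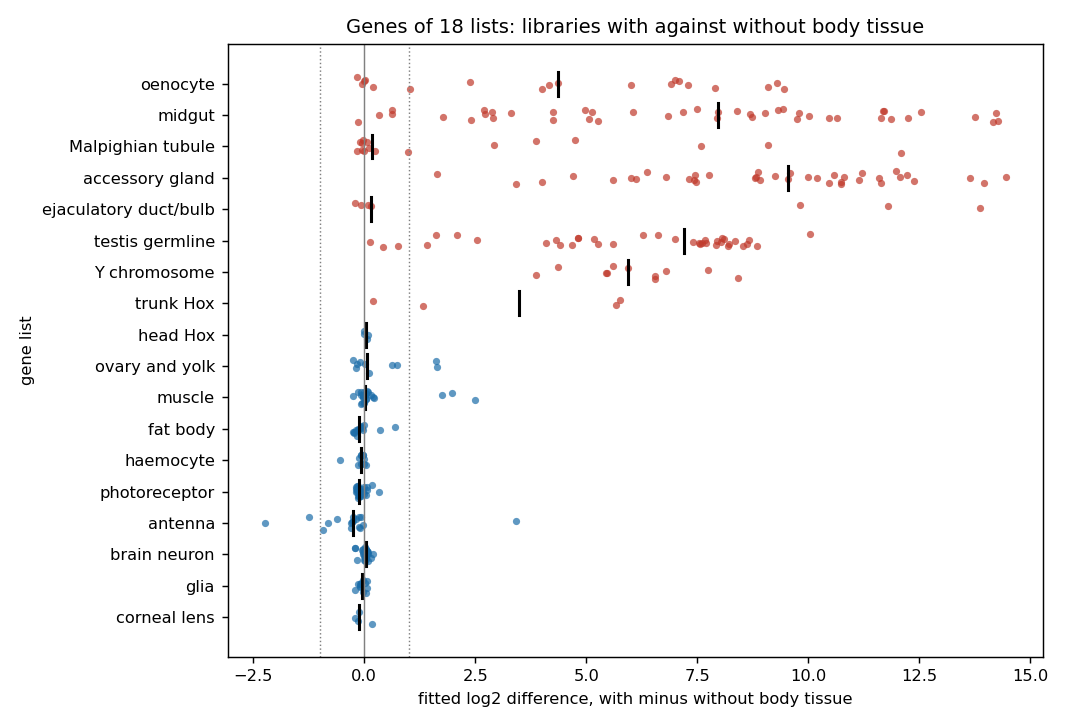
Fitted log2 difference, with minus without body tissue, of each fitted gene in 18 lists, with a short black line at each median and dotted lines at the thresholds of 1 and -1. The medians are 7.96 for midgut, 9.54 for accessory gland and 7.20 for testis genes, against -0.11 for photoreceptor and 0.03 for brain neuron genes.

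Lists of muscle, fat body and haemocyte genes, tissues found in head and body alike, held 1 gene that met either rule. Among 25 muscle genes 1 was higher, the troponin C gene TpnC47D, at 0.860 to 1.71 CPM with body tissue and 0.177 to 0.701 CPM without it. The myosin heavy chain gene Mhc was at 1200 to 1602 CPM with body tissue and 1223 to 1454 CPM without it. None of 15 listed fat body genes, 14 of them fitted, and none of 12 listed haemocyte genes, 11 of them fitted, met either rule. The lipoprotein gene apolpp was at 4237 to 5354 CPM with body tissue and 5069 to 5756 CPM without it. The collagen gene Col4a1, made by haemocytes and fat body, was at 199 to 393 CPM with body tissue and 212 to 323 CPM without it.

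Antennal genes leaned the other way. Lens, photoreceptor, fat body, haemocyte and glia genes did so by less, with medians of -0.12, -0.11, -0.11, -0.07 and -0.05. Brain neuron and muscle genes had medians of 0.03 and 0.01. Of 27 listed antennal genes, 17 had enough counts to fit, with a median log2 difference of -0.26, and 1 was higher and 1 was lower. The lower gene was Jhedup, a duplicate of the juvenile hormone esterase gene. It had 0.256, 0.0844, 0.101, 0.0242 and 0.206 CPM in the libraries with body tissue, against 0.836, 0.314, 0.318 and 1.5 CPM in those without it, a log2 difference of -2.24 ± 0.57 (SE). Counting the absence of overlap alone, 4 antennal genes were lower, beside 85 of 12963 genes fitted, which is 0.656%. They were Jhedup, the odorant co-receptor Orco, the odorant-binding protein gene Obp19d and the ionotropic co-receptor Ir25a. Orco had 1.91, 1.33, 1.86, 1.86 and 1.72 CPM in the libraries with body tissue, against 2.65, 2.75, 2.41 and 2.46 CPM in those without it. Obp19d was at 815 to 1030 CPM with body tissue and 1068 to 1226 CPM without it, and Ir25a was at 9.37 to 10.3 CPM and 10.7 to 11.8 CPM. Of the 4 most abundant antennal genes, Obp56d, Obp99b and Obp57c overlapped between the classes and only Obp19d did not. The log2 differences of Obp56d, Obp99b and Obp57c were -0.12 ± 0.09, -0.02 ± 0.07 and -0.29 ± 0.12 (SE). The higher gene, Obp99a, was at 3.34 to 10.8 CPM with body tissue and 0.262 to 0.648 CPM without it.

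Another set of antennal genes followed a pair of libraries and not the classes. Obp83a had 0.295, 0.422, 0.327, 0.507 and 0.262 CPM in the libraries with body tissue, against 0.355, 0.580, 1.93 and 2.88 CPM in those without it. Obp59a was counted in Grp replicates 1 and 3 alone, at 0.243 and 0.217 CPM, and had no count in the other 7 libraries. The olfactory-specific gene Os-C had 1.12 and 1.52 CPM in the same 2 libraries and at most 0.0483 CPM elsewhere. These 2 libraries were without body tissue, but the others without body tissue, Iso7 replicate 2 and Iso1 replicate 3, did not share the signal. All antennal genes described except Obp19d, Obp56d, Obp99b and Obp57c were chosen after their values were seen.

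Among genes in no list, the 10 with the highest mean abundance with body tissue of those at a log2 difference of 3 or more were CG4836, CG17097, Mur18B, FBgn0267727, CG16826, CG12699, CG31538, CG18628, CG2127 and CG33340. CG4836 had 189, 310, 270, 219 and 129 CPM in the libraries with body tissue, against 0.0418, 0.846, 0.561 and 0.335 CPM in those without it. Mur18B, a mucin-related gene, had 134, 226, 69.6, 113 and 115 CPM in the libraries with body tissue, against 0.0627, 0.0242, 0.0561 and 0.0197 CPM in those without it. Relative to CG4836, Mur18B was low in Iso1 replicate 1. CG17097 had 109, 228, 150, 158 and 128 CPM with body tissue and 2 counts in all without it. The other 7 were at 37.6 to 137 CPM with body tissue. Without it they reached at most 0.918 CPM, except CG31538 with 4.59 to 7.63 CPM and CG18628 with 1.14 to 2.15 CPM.

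The summed abundance of each list varied among the libraries with body tissue, and not in a fixed ratio. For each list, the genes that were higher and stayed under 0.5 CPM without body tissue were summed, a choice that fixes the gap to the libraries without body tissue. Over all members of a list the classes did not overlap for midgut genes, at 591 to 1341 CPM with body tissue and 73.1 to 144 CPM without it. They overlapped for oenocyte genes, Cyp4g1 included, at 4637 to 6863 CPM and 3650 to 4952 CPM. They did so too for tubule genes, at 811 to 963 CPM and 837 to 903 CPM. Duct and bulb genes also overlapped, at 3799 to 4090 CPM and 3676 to 4717 CPM. Of the chosen genes, the 9 oenocyte genes summed to 108, 339, 157, 176 and 145 CPM, and the 5 tubule genes to 23.4, 53.7, 22.6, 32.0 and 15.7 CPM. The 38 seminal fluid genes summed to 362, 834, 802, 675 and 370 CPM, and the 3 duct and bulb genes to 251, 467, 432, 364 and 179 CPM. The 11 Y-linked genes summed to 6.50, 9.71, 8.84, 6.38 and 4.07 CPM. Iso7 replicate 3 was highest in each of these sums and in those for midgut and testis. Iso1 replicate 1 came second in the seminal fluid, duct and bulb, testis and Y-linked sums, and Iso1 replicate 2 in the oenocyte, midgut and tubule sums. The ratio of the seminal fluid sum to the midgut sum was 0.656, 0.855, 1.73, 1.11 and 0.838 in the 5 libraries. The ratio of the tubule sum to the midgut sum varied less, from 0.0355 to 0.0550.

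Iso7 replicate 3 and Iso1 replicate 1 show this difference gene by gene. The genes used were higher, stayed under 0.5 CPM in every library without body tissue and had a mean of 1 CPM or more with it. The log2 ratio of Iso7 replicate 3 over Iso1 replicate 1 had a median of 1.15 over 8 oenocyte genes, 1.09 over 31 midgut genes and 1.26 over 5 tubule genes. It had a median of 0.14 over 36 seminal fluid genes, 0.14 over 3 duct and bulb genes, 0.18 over 20 testis genes and 0.06 over 3 Y-linked genes. Of the 31 midgut genes 20 had a ratio of 1 or more, against 3 of the 36 seminal fluid genes. The 1374 genes in no list that met the same conditions had a median of 0.37. Of these, 917 were below 0.5, as were 29 of 36 seminal fluid and 15 of 20 testis genes, and 153 were at 1 or more. These are ratios between 2 libraries, have no replicate and were chosen after the sums had been seen.

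**Figure D4:**
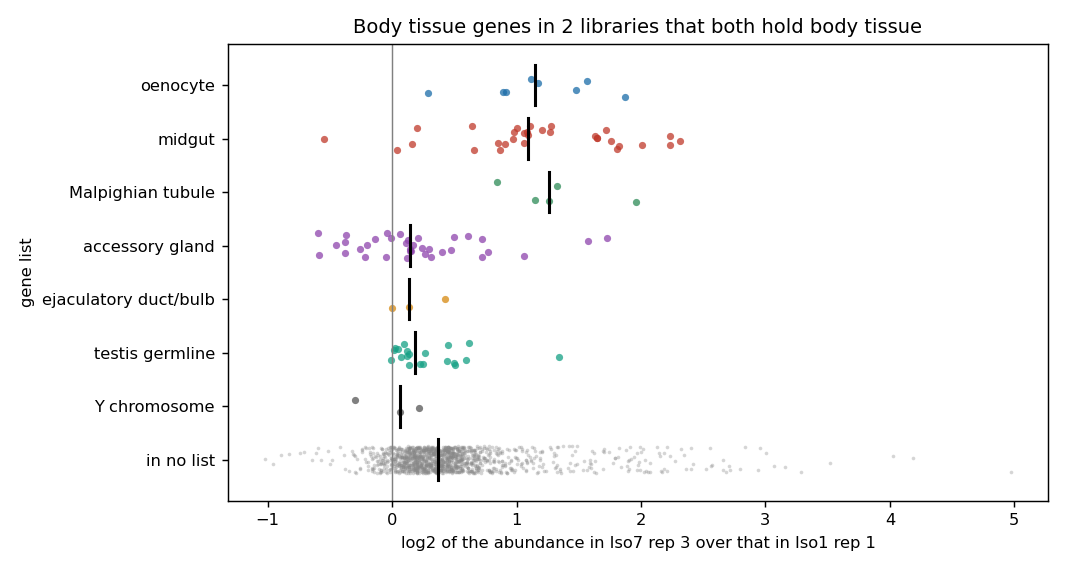
Log2 ratio of the abundance in Iso7 replicate 3 over that in Iso1 replicate 1, by list, with a short black line at each median. Shown are genes higher with body tissue, under 0.5 CPM in every library without it and at a mean of 1 CPM or more with it. Oenocyte, midgut and tubule genes have medians of 1.15, 1.09 and 1.26, while seminal fluid and testis genes have medians of 0.14 and 0.18.

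A further set of genes was high in Iso7 replicate 1 and Iso1 replicate 1 alone. When the lower of these 2 libraries was set against the highest of the other 7, with 0.1 CPM added to each, 18 genes were separated by more than 1 log2 unit. The same count for the other 35 pairs of libraries was at most 8. CG34324 had 51.7 CPM in Iso7 replicate 1 and 42.7 CPM in Iso1 replicate 1, against no count in the other 7 libraries. CG34220 had 143 and 77.3 CPM in this pair, against 1.05 to 1.93 CPM elsewhere. The mucin gene Muc68D had 36.4 and 23.3 CPM in the pair, against at most 0.0725 CPM elsewhere. The set included TpnC4 and fln, both genes of the flight muscle sarcomere. TpnC4 had 2.86 and 6.17 CPM in the pair and 0.112 to 0.359 CPM elsewhere, and fln had 1.67 and 4.13 CPM in the pair and 0.0966 to 0.338 CPM elsewhere. It also included Akh, the adipokinetic hormone of the corpora cardiaca, with 1.12 and 0.932 CPM in the pair and 0.0966 to 0.337 CPM elsewhere. The flight muscle actin Act88F did not follow, with 8.67 and 25.8 CPM in the pair and 8.46 to 30.9 CPM elsewhere. The pair and all of these genes were chosen after their values were seen. With both libraries left out, 2577 genes were higher with body tissue, and 2510 of these were among the 2548 counted with all libraries.

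Yolk protein genes were high in a single library. Yp1 had 9.65, 6.65, 422, 2.87 and 21.1 CPM in the libraries with body tissue, against 9.03, 4.16, 7.47 and 10.3 CPM in those without it. Yp2 had 310 CPM and Yp3 477 CPM in the same library, Iso1 replicate 1, against at most 11.8 and 61.0 CPM in the others. Yolk proteins are made by the female fat body and ovary. Of 25 listed ovary, eggshell and yolk genes 10 had enough counts to fit and none was higher by the rule for the classes, under which a rise in a single library, such as that of Yp1, does not count. The eggshell gene psd was highest in Iso1 replicate 1, at 0.252 CPM, against at most 0.0967 CPM elsewhere. The chorion gene Cp15 had no count in any library, and the vitelline membrane gene Vm26Aa was at most 0.0483 CPM. The antisense transcript asRNA:CR45601, which overlaps Yp1, had 2.37 CPM in Iso1 replicate 1 and at most 0.505 CPM elsewhere. Cp15, Vm26Aa, psd and the antisense transcript were chosen after their values were seen.

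**Figure D5:**
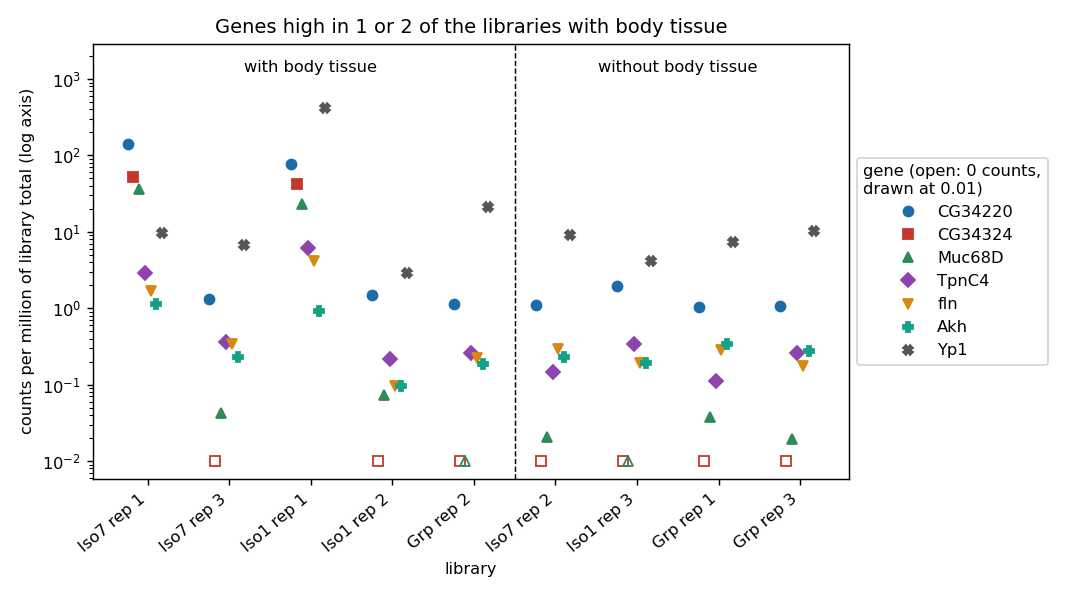
Abundance of 6 genes of the set high in Iso7 replicate 1 and Iso1 replicate 1, and of Yp1, in each library in CPM on a log axis, with the libraries with body tissue left of the dashed line. CG34324 is at 51.7 and 42.7 CPM in the pair and has no count elsewhere, and Yp1 is at 422 CPM in Iso1 replicate 1.

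Housing was not used to form the classes, so the 3 housing comparisons were tested with the body tissue class as a covariate (edgeR quasi-likelihood test, Benjamini-Hochberg adjusted p under 0.05 over all genes fitted). The question for the higher genes was whether any of them also differed by housing. In Iso7 against Grp, 142 of 12963 genes were called, which is 1.1%, and 0.933% were called and up. Of the 2548 genes higher with body tissue 1 was called, and it was up. In Iso1 against Grp, 728 were called, which is 5.62%, and 2.35% were called and up. They included 6 of the genes higher with body tissue, 4 up and 2 down. In Iso7 against Iso1, 895 were called, which is 6.9%, and 4.49% were called and up. They included 24 of the genes higher with body tissue, 23 up and 1 down. The members' shares were 0.0392%, 0.235% and 0.942%, below those of all genes. The spread between libraries was also larger in them, with a median biological coefficient of variation of 0.239, against 0.0842 in the other genes. Grp had a single library with body tissue, so comparisons with Grp rest on it for these genes.

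In Iso7 against Iso1 the amylase gene Amy-p was higher, with 51.6, 73.4 and 19.3 CPM in Iso7 replicates 1, 3 and 2, against 23.2, 34.7 and 5.85 CPM in Iso1 replicates 1, 2 and 3. Its log2 difference was 1.31 ± 0.23 (SE, adjusted p = 0.011). CG10912 was higher by 1.69 ± 0.25 (SE, adjusted p = 0.00474), with 8.39 and 10.6 CPM in the Iso7 libraries with body tissue, against 2.54 and 3.09 CPM in those of Iso1. CG7953 was higher by 1.76 ± 0.31 (SE, adjusted p = 0.011), with 15.2 and 27.9 CPM in the Iso7 libraries with body tissue, against 5.49 and 7.70 CPM in those of Iso1. Midgut genes as a list ran in the same direction between Iso7 replicate 3 and Iso1 replicate 1, as given above, and the part of the amount of gut RNA in these calls was not tested. Among 19 alternatives that kept a body tissue term, Amy-p missed the threshold without Iso7 replicate 2 (adjusted p = 0.0632), CG10912 under limma-voom (adjusted p = 0.14), and CG7953 without Iso1 replicate 1 (adjusted p = 0.066) and under limma-voom (adjusted p = 0.507). Their lowest adjusted p over these alternatives were 9.24e-07, 0.000947 and 6.11e-05. CG7953 was also called in Iso1 against Grp, at a log2 difference of -1.59 ± 0.35 (SE, adjusted p = 0.0339). It had 19.7 CPM in Grp replicate 2, and this call held in 12 of 19 alternatives. The 1 higher gene called down in Iso7 against Iso1 was CG12374, at -1.30 ± 0.27 (SE, adjusted p = 0.0236). That call held in 15 of 19 alternatives.

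In Iso1 against Grp, CG12374, a metallocarboxypeptidase, was higher by 2.10 ± 0.36 (SE, adjusted p = 0.0133). It had 93.0 and 89.6 CPM in the Iso1 libraries with body tissue, against 20.8 CPM in that of Grp. Without Grp replicate 2 the log2 difference was -0.14 (adjusted p = 1). Grp then had no library with body tissue, so that alternative cannot decide whether the difference holds. Under limma-voom the log2 difference was 2.10 (adjusted p = 0.509), while the other 17 alternatives kept the call. CG45080 was higher in both comparisons with Grp, by 2.78 ± 0.40 in Iso1 (SE, adjusted p = 0.0195) and by 3.44 ± 0.41 in Iso7 (SE, adjusted p = 0.0263). It had 5.0 and 4.69 CPM in Iso7 and 2.49 and 3.62 CPM in Iso1 with body tissue, against 0.430 CPM in Grp replicate 2 and no count in any library without body tissue. Without Grp replicate 2 its log2 differences were -0.35 in Iso1 and 0.26 in Iso7 against Grp (adjusted p = 1 for both). That alternative again left Grp no library with body tissue and cannot decide. Under limma-voom the adjusted p was 0.131 and 0.18. In all, 4 of 19 alternatives lost the call in Iso1 and 6 of 19 lost it in Iso7, the replicate block among them (adjusted p = 0.0566 and 0.135). The noncoding RNA cherub, known from neural stem cells, was higher in Iso1 by 1.57 ± 0.30 (SE, adjusted p = 0.0194), at 1.11, 0.942 and 0.266 CPM in Iso1 replicates 1, 2 and 3, against 0.318, 0.0749 and 0.118 CPM in Grp replicates 2, 1 and 3. It was at 1.45 to 1.73 over 17 alternatives, with adjusted p of 0.011 to 0.123. The call was lost without Grp replicate 1 or 2, without Iso1 replicate 1 or 2, without both Iso7 replicate 1 and Iso1 replicate 1, and with the replicate block (adjusted p = 0.0742, 0.123, 0.0686, 0.0583, 0.0723 and 0.0578).

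The count of higher genes called by housing, 1, 6 and 24 in the 3 comparisons, depended on the method and on single libraries. It was 0, 1 and 2 with limma-voom, beside 142, 702 and 842 of all genes fitted. With DESeq2 it was 20, 27 and 35, beside 346, 1255 and 1324 of all genes. At an unadjusted p under 0.05, edgeR had 605, 357 and 138 of these 2548 genes and limma-voom 85, 40 and 27. Over all 12963 genes edgeR had 1469, 2930 and 2625 and limma-voom 952, 2606 and 2504. By edgeR the members' share at this p was thus above that of all genes in Iso7 against Grp, unlike after adjustment. In the other comparisons it was below. With the replicate block the count of members called was 2, 13 and 45, of which 0, 2 and 11 were among the 1, 6 and 24. All genes called were then 76, 328 and 543. With no body tissue term edgeR called 0 members in each comparison, and 4, 1 and 1 were at an unadjusted p under 0.05. Over all genes it called 39, 513 and 599, and 825, 2401 and 2261 were at that p. Without Iso7 replicate 1 the count of members called was 85 in Iso7 against Grp, 83 in Iso1 against Grp and 93 in Iso7 against Iso1. All genes called were then 204, 761 and 801. Without Iso7 replicate 3 the members called were 3, 125 and 45 in the same comparisons, beside 93, 784 and 519 of all genes. Without Grp replicate 2 the members called were 0, 1 and 15, with 70, 94 and 126 at an unadjusted p under 0.05. Grp then had no library with body tissue. Over all genes this alternative called 81, 394 and 861, with 1073, 3042 and 2762 at that p. With Cyp4g1 as a numeric term in place of the classes the members called were 15, 321 and 80, beside 180, 1291 and 1057 of all genes.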

How the data were processed

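Whole-head RNA was sequenced from 9 samples. The deposited values were counts per gene, neither normalised nor pooled. Per the submitters' processing notes, the authors used bcl2fastq 2.20, STAR 2.4.2a and featureCounts; not given in the sources used here are the genome build, the featureCounts version and how it treated strand and shared reads. Symbols came from the Ensembl BDGP6 annotation: 17144 of 17490 genes had the same span there. Exons of 4520 genes overlap the other strand, including those of Yp1, fln, twe and Mal-A1.

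CPM are counts scaled to a library total of 1000000. The model was fitted by edgeR 4.0.16 under R 4.3.3 (filterByExpr on housing group, TMM, quasi-likelihood) with housing group and body tissue class as terms. Standard errors are the log2 difference over the root of the F statistic. The script was tested on simulated data. A count of 0, in a library or over the 4 without body tissue, allows up to 3 counts. Lower bounds set the mean CPM with body tissue against 3 counts over those 4 libraries. Both cover counting error only. Figures used matplotlib 3.10.9.

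The members and the 18 gene lists (379 of 385 symbols matched) were chosen with earlier results of these data known. Named genes were the rule's markers, SP, Dup99B and Hox genes; the 4 most abundant members of each list with body tissue; the 10 most abundant unlisted higher genes of log2 difference 3 or more; the 10 largest falls at 5 CPM or more (0 qualified); and, per housing comparison, the 3 higher genes of lowest p. Alternatives were RLE, upper quartile and library total scaling, other filters and thresholds, limma-voom 3.58.1, DESeq2 1.42.0, other model terms and leaving out each library.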

Additional observations from a re-analysis of the deposited data

Results flagged for a closer look

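In groups of 4 or 5 libraries of a class, the highest or lowest library was set against the spread of the others. Of 172 such groups 17 had a library standing apart, where chance gives about 1 in 20. None was tested for a cause.

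With body tissue, Iso7 replicate 3 stood apart in ZnT35C (7.11 CPM, next 3.95 CPM) and Dup99B (16.2 CPM, next 8.84 CPM). Grp replicate 2 was low in kl-5 at 0.561 CPM. Iso1 replicate 1 was high in Yp1 at 422 CPM, in Yp2 at 310 CPM and in Yp3 at 477 CPM.

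Without body tissue, Iso1 replicate 3, the only Iso1 library of that class, stood apart in 9 measures. It was high in EbpIII at 3693 CPM, in the muscle genes Mf at 650 CPM and Mlc2 at 861 CPM, in the lens genes retinin at 471 CPM and Crys at 10.2 CPM, and in Gad1, the GABA synthesis enzyme, at 716 CPM. It was low in bol at 103 CPM, in shi, the dynamin of synaptic vesicle recycling, at 553 CPM and in the seminal fluid sum at 1.16 CPM. Both Iso1 libraries with body tissue were the highest of their class in 5 of these genes, namely retinin at 438 and 437 CPM, Crys at 8.21 and 9.35 CPM, Mf at 677 and 640 CPM, Mlc2 at 666 and 683 CPM and Gad1 at 695 and 740 CPM. In shi and bol, where Iso1 replicate 3 was low, they were also the highest of their class. They had 748 and 754 CPM in shi and 201 and 195 CPM in bol. Iso7 replicate 2, the only Iso7 library without body tissue, was low in Alp4 at 62.7 CPM and high in apolpp at 5756 CPM.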

How the results depend on the processing

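The number of genes higher with body tissue was 1753 with at least 1 CPM in 3 libraries, 3038 with no filter on low counts and 2536 to 2696 when each library was left out in turn, within 1.5 times of 2548 in every alternative run. The number lower was 1, against 5 with no filter on low counts, 0 with at least 1 CPM in 3 libraries, 5 with a threshold of 0.5 and 1 to 5 when each library was left out. Fitted log2 differences of 172 named genes under 19 alternatives gave 3246 values, of which 171 moved by more than the SD over the libraries with body tissue. No gene counted as higher or lower changed sign, and genes that were neither did so in 105 cases. Scaling moved the median of all genes by less than 0.1.

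Housing counts moved more. With group means removed, r between libraries was -0.361 to 0.0876 over 9 pairs of equal replicate number. Over pairs of unequal number it was -0.289 to 0.27. Body tissue class was not removed, so these values cannot decide whether replicate numbers paired the samples. With a replicate block, 76 genes were called in Iso7 against Grp, 328 in Iso1 against Grp and 543 in Iso7 against Iso1. DESeq2 called 346 in Iso7 against Grp and 1255 in Iso1 against Grp. Without a body tissue term Iso7 against Grp had 39. With Cyp4g1 as a numeric term Iso1 against Grp had 1291. When each library was left out, Iso7 against Grp had 34 to 241, Iso1 against Grp 241 to 784 and Iso7 against Iso1 395 to 1218. In Iso7 against Grp the lowest count was without Iso7 replicate 2 and the highest without Iso1 replicate 3. It was 56, 81 and 68 without Grp replicates 1, 2 and 3 and 93 without Iso7 replicate 3. In Iso1 against Grp it was 241, 394 and 263 without Grp replicates 1, 2 and 3, and 457 and 409 without Iso1 replicates 1 and 2. In Iso7 against Iso1 it was 482 and 581 without Grp replicates 1 and 3, 484 and 493 without Iso1 replicates 1 and 2, and 395 and 519 without Iso7 replicates 2 and 3. Without both Iso7 replicate 1 and Iso1 replicate 1, an alternative chosen after seeing the data, 3 genes were lower with body tissue, and 463 were called in Iso1 against Grp and 449 in Iso7 against Iso1. For the rest the cause was not tested, except that leaving out a library also leaves fewer samples.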
